A study of Mus musculus with 12 samples.

Results

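The genes described here are Fpr1, Fpr2, C5ar1, C3ar1, Ltb4r1 and Ptafr, 6 receptor genes taken by name out of the 27179 genes counted. They encode the receptors for formyl peptides (Fpr1 and Fpr2), for the complement fragments C5a and C3a (C5ar1 and C3ar1), for leukotriene B4 (Ltb4r1) and for platelet-activating factor (Ptafr). All 6 are membrane receptors that couple to G proteins. Phagocytes use them to sense bacterial products, activated complement and inflammatory lipids, and to move toward their source. In the myeloid lineage the formyl peptide, C5a and leukotriene B4 receptors are known as features of maturing neutrophils and monocytes, while the receptors for C3a and platelet-activating factor are also well known on monocytes and macrophages.

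RNA was measured in AML246 cells, a C57BL/6 mouse acute myeloid leukemia that is p53-/- and carries a hairpin RNA against PU.1 (shPU.1), a transcription factor of myeloid cells whose gene is Spi1. The hairpin is linked to GFP and is shut off by doxycycline (Dox), after which PU.1 returns gradually. Leukemic cells were sorted from the bone marrow of leukemic recipients in 4 groups of 3 libraries, namely untreated mice (GFPhigh cells) and mice given Dox for 2 days (GFPhigh-mid), 4 days (GFPmid) or 6 days (GFPlow). All 4 groups share the p53 loss, the hairpin and the AML246 source, and no group received Dox without the hairpin. The gate and the time on Dox therefore cannot be told apart, nor can Dox itself and hairpin shut-off. The replicates are called technical in the sample titles and triplicate mice in the design text. The p-values therefore cover only the variation among these samples, and that variation may be technical.

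Libraries held 4918920 to 7356166 counts, so that 3 counts corresponded to 0.393 to 0.640 CPM, a count relative to its library's scaled total. Such floors and counting intervals cover counting error only. Spi1 ranged from 54.2 to 67.5 CPM in untreated libraries, 98.8 to 123 on day 2, 244 to 269 on day 4 and 438 to 497 on day 6, with no overlap between groups. Among replicates, day 6 replicate 2 stood apart, with a variance 38.3 to 44.1 times that of counting error against the other day 6 libraries, compared with 2.62 to 10.5 in all other replicate pairs. CPM values below are scaled with TMM factors (0.737 to 0.847 on day 6 and 1.02 to 1.15 elsewhere), which set the typical gene to no change. Of 10 tested genes on a list for the labelled leukemic progenitor cells, 6 were called lower and 3 higher on day 6 than in untreated cells. Of all tested genes, 32.9% were called lower and 35.0% higher. The list includes Spi1, which was called higher, and the pan-leukocyte gene Ptprc, whose mean level also rose (given below). The sum of the list was 29066 to 33131 CPM in untreated cells, 22887 to 23775 on day 2, 13200 to 19835 on day 4 and 9152 to 11451 on day 6, with Hoxa9 at 0 throughout.

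Messenger RNA of all 6 receptor genes was higher on day 6 of Dox than in untreated cells. Fpr1, Fpr2, C5ar1 and C3ar1 rose 75.6 to 123 times in mean CPM, Ltb4r1 by 9.10 times and Ptafr by 3.59 times, with few untreated counts behind the values for Fpr1 and C3ar1. For Fpr1, Fpr2, C5ar1 and Ltb4r1, 88.8% or more of the gain in mean CPM came after day 4, also with library totals or any 1 library left out. Only C3ar1 and Ptafr had passed the test against untreated by day 4, and none had on day 2. The summed level of the 6 genes was 75.4 to 110 CPM in untreated libraries, 76.2 to 120 on day 2, 149 to 229 on day 4 and 928 to 1346 on day 6. In bulk RNA, more cells of a type and more RNA per cell cannot be told apart.

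All 6 genes passed the filter on low counts and were tested with edgeR's quasi-likelihood test, Benjamini-Hochberg adjusted over 12057 genes. Fpr1 and C3ar1 passed it only through the later groups, where they are high. All untreated libraries together held 26 counts of Fpr1 and 4 of C3ar1, so C3ar1 could hardly be called lower than untreated. On day 6 against untreated, 6 of 6 were called higher, where 35.0% of all tested genes were called higher, 32.9% lower and 67.9% in either direction. On day 4 it was 2 of 6, beside 22.1% of all tested genes called higher, 20.2% lower and 42.4% in either direction. On day 2 it was 0 of 6 in either direction, beside 1.05% of all tested genes called higher, 0.406% lower and 1.45% in either direction. None reached an unadjusted p under 0.05 on day 2 (the lowest was 0.177, for Fpr1), and DESeq2 and limma voom also called 0. The median log2 fold change of the 6 genes was 0.12 on day 2, 1.14 on day 4 and 6.42 on day 6, where the medians of all tested genes were -0.0038, -0.015 and -0.00029.

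**Figure D1:**
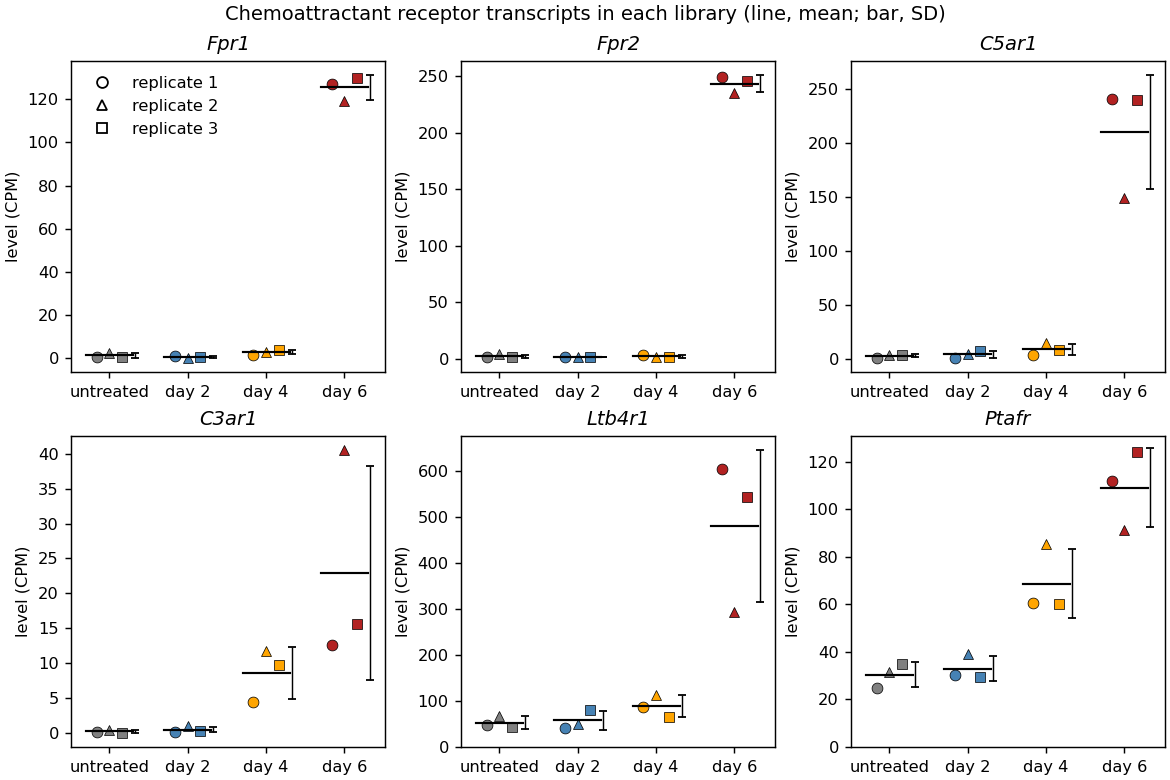
Level of each receptor gene in CPM (linear axis, own scale per gene) in every library by group, with replicates 1, 2 and 3 as circle, triangle and square, the mean as a line and the SD as a bar. All day 6 libraries lie above all libraries of the other groups for each gene, and day 6 replicate 2 is the highest for C3ar1 (40.5 CPM) and the lowest for Ltb4r1 (293 CPM).

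Fpr1 and Fpr2 encode 2 receptors for formylated peptides, which bacteria and mitochondria release, and Fpr2 also binds a range of other ligands. Fpr1 (Entrez ID 14293) lies on the minus strand at chr17:17876471-17883939 and Fpr2 (ID 14289) on the plus strand at chr17:17887824-17893952 of mm10 (GRCm38). The genes point away from each other with 3884 bases between them. Each has its coding sequence in a single exon in at least 1 annotated transcript. Their promoters are shown because these neighbours moved together on day 6 and because PU.1, which returns on Dox, binds GAGGAA-type words. Sequences are from RefSeq (GRCm38.p6), 250 bases before to 50 after the gene start, 5′ to 3′ on the gene's strand, and capitals mark GAGGAA on either strand (TTCCTC when it lies on the opposite strand).
Fpr1 promoter, chr17:17883890-17884189, - strand: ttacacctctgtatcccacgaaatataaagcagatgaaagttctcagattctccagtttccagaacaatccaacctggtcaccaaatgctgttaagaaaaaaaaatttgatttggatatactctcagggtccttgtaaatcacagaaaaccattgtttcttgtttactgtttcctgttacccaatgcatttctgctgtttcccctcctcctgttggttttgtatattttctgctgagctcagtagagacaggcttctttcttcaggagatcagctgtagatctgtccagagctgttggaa
Fpr2 promoter, chr17:17887574-17887873, + strand: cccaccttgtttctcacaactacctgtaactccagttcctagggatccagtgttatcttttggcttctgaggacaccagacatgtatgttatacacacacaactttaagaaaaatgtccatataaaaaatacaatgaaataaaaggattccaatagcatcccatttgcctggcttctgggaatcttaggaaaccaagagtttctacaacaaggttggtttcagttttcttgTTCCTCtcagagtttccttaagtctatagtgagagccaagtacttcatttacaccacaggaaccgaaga
Fpr2 held 1 such word on the opposite strand, with its first base at position -19 from the gene start, and Fpr1 held none in this window. Of 32851 promoters of the same length, 28.28% held the word, so its presence in 3 of the 6 receptor promoters (Fpr2, Ltb4r1 and Ptafr) is a description only.

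Fpr1 was close to the detection floor until day 4. Its levels in replicates 1, 2 and 3 were 0.57, 2.51 and 0.57 CPM in untreated cells, 1.06, 0.18 and 0.52 on day 2, 1.5, 2.92 and 3.52 on day 4 and 127, 119 and 130.02 on day 6. The raw counts behind these were 26 in all untreated libraries together, 12 on day 2, 54 on day 4 and 2004 on day 6. Untreated replicate 2 was above the other untreated libraries and overlapped the day 4 range, while the day 6 libraries lay far above all others. On day 6 the log2 fold change over untreated was 6.66 ± 0.36 (SE; edgeR adjusted p = 3.03e-08), a 103-fold ratio of mean CPM. Without untreated replicate 2 it was 7.73 (edgeR adjusted p = 2.88e-08).

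The step from day 2 to day 4 was smaller. Fpr1 was 4.48 times higher in mean CPM on day 4 than on day 2 (log2 fold change 2.09 ± 0.59, edgeR adjusted p = 0.0237). This call was lost when day 2 replicate 2 or 3 or day 4 replicate 2 or 3 was left out, with log2 fold changes of 1.75 to 2.02 and adjusted p of 0.0698 to 0.092, and without day 2 replicate 1 the log2 fold change was 2.74. Against untreated, day 4 did not pass (1.10, edgeR adjusted p = 0.0973), and without untreated replicate 2 it did (2.18, adjusted p = 0.00489). In that library the summed level of mature neutrophil markers was 1.81 times the mean of the other untreated libraries, and the part of this in the Fpr1 value was not tested.

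No step of Fpr2 before day 6 passed the test. Its levels were 1.70, 4.04 and 1.58 CPM in untreated cells, 1.52, 1.83 and 1.97 on day 2, 3.45, 1.75 and 1.47 on day 4 and 249, 235 and 246 on day 6. The untreated, day 2 and day 4 libraries overlapped, and the day 6 libraries lay close together and far above them. The log2 fold change over untreated was 6.62 ± 0.25 on day 6 (edgeR adjusted p = 2.79e-09), -0.14 ± 0.37 on day 4 and -0.46 ± 0.39 on day 2. From day 4 to day 6 the log2 fold change was 6.77 ± 0.25 (edgeR adjusted p = 3.07e-08), a 109-fold ratio. Within day 6 the ratio of Fpr2 to Fpr1 in CPM was 1.96, 1.97 and 1.89, so the pair kept nearly the same proportion in each library.

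Counting limits touch Fpr2 more than its relatives. Of the 1295 stretches of 50 bases in its transcripts, 408 (31.5%) also occur in transcripts of other genes, namely 368 in the predicted gene Gm5966, 82 in Fpr3 and 1 in Fpr1. GENCODE also places Fpr3 over 6101 bases of the Fpr2 locus on the same strand, while in RefSeq, whose gene IDs the counts use, 0 other genes overlap it. Fpr3 itself received 1 count over the 12 libraries. How reads in shared stretches were counted is not given in the sources used here, so the level of Fpr2 is uncertain to that extent, while Fpr1 shared only 1 of 1275 such stretches. Ptafr shared 103 of 3588 (2.87%) with transcripts of 193 other genes, and C5ar1, C3ar1 and Ltb4r1 shared 0.

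The complement receptor genes first passed the test against untreated on different days, C3ar1 on day 4 and C5ar1 on day 6. C5ar1 (ID 12273, minus strand, chr7:16246743-16259540), the main receptor for the neutrophil attractant C5a, was measured at 1.13, 3.48 and 3.74 CPM in untreated cells and 1.06, 4.21 and 7.34 on day 2. It was at 3.75, 14.4 and 8.22 CPM on day 4 and at 241, 149 and 240.1 CPM on day 6. Levels on day 4 lay just above all untreated libraries but overlapped day 2, and day 6 libraries were well above the rest. The log2 fold change over untreated was 6.23 ± 0.56 on day 6 (edgeR adjusted p = 4.08e-06) and 1.66 ± 0.66 on day 4 (adjusted p = 0.0647). Without day 4 replicate 1, both C5ar1 (2.02, edgeR adjusted p = 0.0265) and Fpr1 (1.38, 0.0478) passed on day 4. C5ar1 also passed there without day 2 replicate 1 (adjusted p = 0.0386) or 3 (0.0483). From day 4 to day 6 it was 4.57 ± 0.49 (edgeR adjusted p = 5.52e-05), a 23.9-fold ratio.

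C3ar1 (ID 12267, minus strand, chr6:122847140-122856157), the receptor for C3a, was already up on day 4. Its levels were 0.14, 0.42 and 0.00 CPM in untreated cells, 0.15, 0.92 and 0.26 on day 2, 4.35, 11.7 and 9.69 on day 4 and 12.6, 40.5 and 15.6 on day 6. Untreated and day 2 libraries held 0 to 5 counts each, and every day 4 library lay above all of them. The untreated level rests on 4 counts in 3 libraries, so the fold is given with its counting interval. The ratio of summed counts, scaled to library size, to untreated was 45.6 on day 4 (95% exact interval 17.5 to 169) and 129 on day 6 (50.1 to 476.8), while on day 2 it was 2.15 (0.577 to 9.78), not a detectable difference at this depth. The edgeR log2 fold changes, which depend on the prior count at such levels, were 5.37 ± 0.86 on day 4 (adjusted p = 5.04e-04) and 6.80 ± 0.80 on day 6 (adjusted p = 1.58e-05). Without untreated replicate 2 they were 6.56 and 7.99, and without day 6 replicate 2 the day 6 value was 6.09.

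From day 4 to day 6 the C3ar1 ratio was 2.67 (log2 fold change 1.43 ± 0.48, edgeR adjusted p = 0.0288), and this call rested on single libraries. It was lost without day 6 replicate 2 (0.72, adjusted p = 0.132), without day 4 replicate 1 (1.11, 0.0994) and without day 4 replicate 3 (1.52, 0.0599). Day 6 replicate 2 alone held 252 of the 391 day 6 counts.

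The lipid mediator receptor genes Ltb4r1 and Ptafr had the highest levels of the 6 before Dox. Ltb4r1 (ID 16995, plus strand, chr14:55765962-55768492) encodes BLT1, the high-affinity receptor for leukotriene B4, and Ptafr (ID 19204, plus strand, chr4:132564067-132582683) the receptor for platelet-activating factor. Their promoters are shown because they hold GAGGAA in a different place from Fpr2, with the same source, orientation and capitals as above.
Ltb4r1 promoter, chr14:55765712-55766011, + strand: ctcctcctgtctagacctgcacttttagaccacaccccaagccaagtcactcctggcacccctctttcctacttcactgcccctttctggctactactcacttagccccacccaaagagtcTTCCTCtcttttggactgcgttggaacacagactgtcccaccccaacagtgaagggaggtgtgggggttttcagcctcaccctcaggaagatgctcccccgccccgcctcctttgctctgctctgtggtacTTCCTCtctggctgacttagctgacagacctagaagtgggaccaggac
Ptafr promoter, chr4:132563817-132564116, + strand: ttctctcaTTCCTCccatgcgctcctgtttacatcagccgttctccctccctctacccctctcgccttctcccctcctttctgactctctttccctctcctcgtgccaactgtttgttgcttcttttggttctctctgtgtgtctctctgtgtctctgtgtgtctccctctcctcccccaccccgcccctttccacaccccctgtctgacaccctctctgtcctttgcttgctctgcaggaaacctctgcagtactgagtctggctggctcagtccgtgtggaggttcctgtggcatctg
All 3 words lay on the opposite strand, starting at positions -129 and 2 of Ltb4r1 and -242 of Ptafr. Both Ltb4r1 words were also the longer GAGGAAG, found in 13.63% of all promoters and in no other of the 6. The C/EBP-type word TTGCNNAA (10.8% of promoters) was in none of the 6, and the AP-1-type word TGANTCA (7.808%) was only in C3ar1, at position -22. Both strands were searched, and GAGGAAG by its letters overlaps GAGGAA.

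Ltb4r1 was at 47.1, 68.2 and 43.0 CPM in untreated cells, 42.1, 50.9 and 80.6 on day 2, 87.5, 113 and 65.3 on day 4 and 604, 293 and 544 on day 6. Untreated, day 2 and day 4 libraries overlapped, and day 6 replicate 2 was the lowest of its group yet above every earlier library. The log2 fold change over untreated was 3.18 ± 0.35 on day 6 (edgeR adjusted p = 1.41e-05) and 0.75 ± 0.33 on day 4 (adjusted p = 0.0938). From day 4 to day 6 it was 2.44 ± 0.34 (edgeR adjusted p = 2.39e-04), a 5.41-fold ratio.

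Ptafr was called higher both by day 4 and again from day 4 to day 6. It was at 24.8, 31.5 and 34.9 CPM in untreated cells, 30.4, 39.0 and 29.5 on day 2, 60.6, 85.3 and 60.3 on day 4 and 112, 91.1 and 124 on day 6. Untreated and day 2 libraries overlapped, every day 4 library lay above both, and every day 6 library lay above day 4. The log2 fold change over untreated was 1.18 ± 0.18 on day 4 (edgeR adjusted p = 2.75e-04) and 1.84 ± 0.18 on day 6 (adjusted p = 2.43e-06). The step from day 4 to day 6 was 0.66 ± 0.17 (adjusted p = 0.00764), and with library totals in place of TMM factors it no longer passed (0.26, adjusted p = 0.159).

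Between neighbouring days, 3 of 6 genes (Fpr1, C3ar1 and Ptafr) were called higher on day 4 than on day 2, where 15.0% of all tested genes were (10.2% lower, 25.2% in either direction). On day 6 against day 4 it was 6 of 6, where 23.6% were called higher, 22.6% lower and 46.3% in either direction. C3ar1 had the largest fitted change of the 6 between day 2 and day 4 (log2 fold change 4.32 ± 0.77, edgeR adjusted p = 0.00212, and 5.22 without day 2 replicate 2), and Fpr2 between day 4 and day 6. The share of each gene's gain in mean CPM between untreated and day 6 that came after day 4 was 98.8% for Fpr1, 100.1% for Fpr2, 97.1% for C5ar1, 91.6% for Ltb4r1, 63.1% for C3ar1 and 51.2% for Ptafr. For C3ar1 the share was 39.7% without day 6 replicate 2. For Ptafr it was 27.1% with library totals in place of TMM factors, and 45.8% without day 4 replicate 3. These days share the day 4 libraries, and the gate changed at each step.

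**Figure D2:**
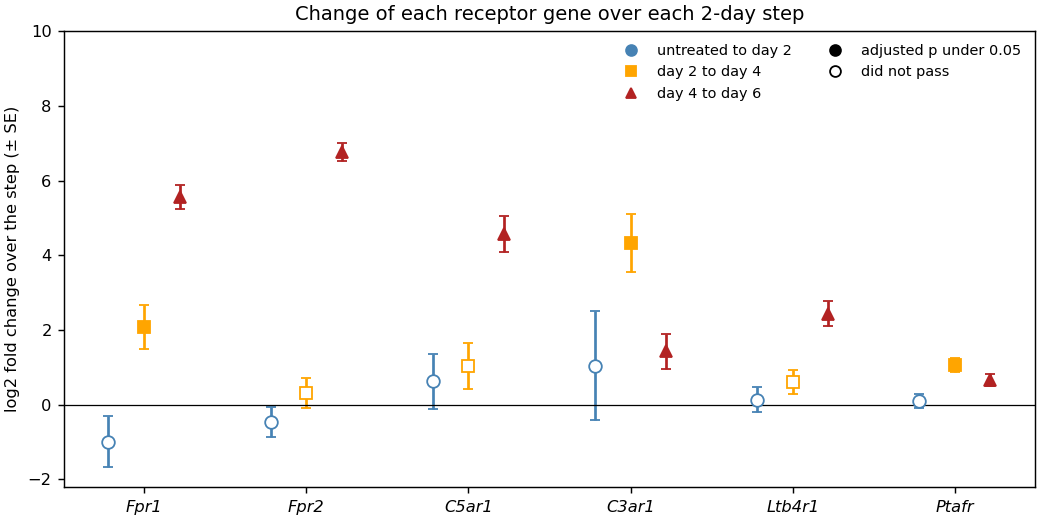
Log2 fold change of each receptor gene over each step between neighbouring groups, with the SE as a bar and filled symbols where the edgeR adjusted p was under 0.05. Fpr2 changed by 6.77 in the step from day 4 to day 6 and by 0.31 in the step before it, while C3ar1 changed by 1.43 and 4.32.

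Whether the pace changed was tested as the log2 fold change after day 4 minus that before it. The difference was called positive for 3 of 6 genes, where 6.25% of all tested genes were called positive, 7.84% negative and 14.1% in either direction. It was 6.45 ± 0.62 for Fpr2 (edgeR adjusted p = 1.46e-04), 3.46 ± 0.95 for Fpr1 (0.0323) and 3.54 ± 0.97 for C5ar1 (0.0372). Ltb4r1 (1.82, adjusted p = 0.0631), Ptafr (-0.40, 0.415) and C3ar1 (-2.89, 0.104) did not pass. The result for Fpr2 passed without any single library (adjusted p 1.49e-05 to 0.00144), and was 7.36 without day 4 replicate 1.

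Ptafr passed the test of pace under no omission (edgeR adjusted p 0.296 to 0.951), but the other results on pace changed with single libraries. Fpr1 did not pass without day 2 replicate 1 or 3, any 1 of the day 4 libraries, or day 6 replicate 1 or 3 (2.81 to 3.98, adjusted p 0.0523 to 0.185). C5ar1 did not pass without day 2 replicate 2 or 3, day 4 replicate 1 or 3, or day 6 replicate 1 or 3 (2.77 to 3.55, adjusted p 0.0649 to 0.144), and was 4.64 without day 4 replicate 2. Without day 6 replicate 2, Ltb4r1 (2.08, edgeR adjusted p = 0.019) and C3ar1 (-3.61, 0.0044) passed as well, in opposite directions.

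Levels of different genes were compared per kilobase of the deposited gene length (RPKM from TMM-scaled counts, mean ± SD of 3 libraries). In untreated cells Ltb4r1 was highest at 37.9 ± 9.73 RPKM, then Ptafr at 16.7 ± 2.82 RPKM, and the other 4 were at 1.88 RPKM or less. On day 6 Ltb4r1 was still highest at 345 ± 118 RPKM, followed by Fpr2 at 187.7 ± 5.69, Fpr1 at 94.8 ± 4.30, C5ar1 at 81.8 ± 20.5, Ptafr at 59.9 ± 9.17 and C3ar1 at 5.33 ± 3.56 RPKM. Fpr1, C5ar1 and Ptafr overlapped in the order on day 6, as neighbours, while the libraries of Ltb4r1, Fpr2 and C3ar1 did not overlap those of their neighbours. Fpr2 thus stood above Ptafr on day 6 (187.7 and 59.9 RPKM) and below it on day 4 (1.72 and 37.8 RPKM).

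Within day 6 the receptor genes split by library. In replicate 2, set against the mean of replicates 1 and 3, the level in CPM was 0.926 times for Fpr1, 0.95 for Fpr2, 0.773 for Ptafr, 0.620 for C5ar1 and 0.511 for Ltb4r1, but 2.87 times for C3ar1. The ratio of C5ar1 to C3ar1 was 3.69 in replicate 2, against 19.2 and 15.4 in the others. The sums of 6 marker lists also differed in replicate 2, though not every gene on a list moved with its sum. The mature neutrophil sum was 71777 CPM in replicate 2 and 134000 to 151474 in the others, the monocyte sum 9803 and 4674 to 4882, and the resident macrophage sum 875 and 354 to 355. The dendritic cell sum was 445 CPM in replicate 2 and 255 to 257 in the others, the T and NK cell sum 58.8 and 7.81 to 9.17, and the eosinophil, basophil and mast cell sum 34.1 and 73.2 to 90.2. The most abundant genes weigh most in these sums. Of the neutrophil markers, S100a9 was at 22982 CPM in replicate 2 and 51176 and 48193 in the others. Mmp8 was nearly level (2059, against 2112 and 2287), and Stfa2l1 was highest in replicate 2 (334, against 282 and 61.3). The macrophage marker Vcam1 (37.0, against 93.6 and 80.0) and the monocyte marker Treml4 (7.39, against 13.4 and 10.7) were lower there, unlike their sums. The part of these markers in the receptor values was not tested. Without replicate 2 the log2 fold change on day 6 over untreated was 6.69 for Fpr1, 6.65 for Fpr2, 6.42 for C5ar1, 6.09 for C3ar1, 3.44 for Ltb4r1 and 1.96 for Ptafr, and edgeR called all 6.

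**Figure D3:**
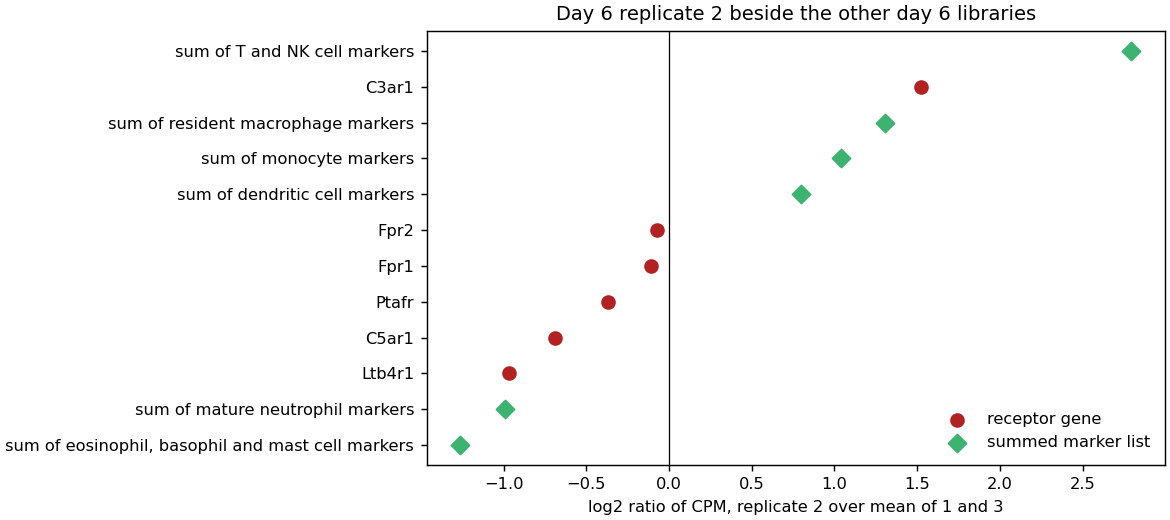
Log2 ratio of the CPM in day 6 replicate 2 to the mean CPM of day 6 replicates 1 and 3, for the 6 receptor genes (circles) and 6 summed marker lists (diamonds). C3ar1 lies to the right with the macrophage, monocyte, dendritic and T and NK cell marker sums, Ltb4r1 lies to the left with the neutrophil and the eosinophil, basophil and mast cell marker sums, and Fpr1 and Fpr2 lie close to 0.

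The same marker lists moved with the days. Mature neutrophil markers summed to 1099 to 2254 CPM in untreated cells, 1294 to 2512 on day 2, 3720 to 6466 on day 4 and 71777 to 151474 on day 6, and none of the 16 was at 0. Of these 16, 11 were called higher on day 4 than in untreated cells and 16 on day 6. Of all tested genes, 22.1% were called higher and 20.2% lower on day 4, and 35.0% and 32.9% on day 6. Monocyte markers summed to 6021 to 7915, 6140 to 8211, 11763 to 12807 and 4674 to 9803 CPM on the same days, and of 14 tested, 10 rose on day 4 while 11 rose and 2 fell on day 6 (edgeR). Resident macrophage markers summed to 64.7 to 93.5, 75.6 to 116, 211 to 372 and 354 to 875 CPM, and of 11 tested, 4 rose on day 4 while 10 rose and 1 fell on day 6. How far these lists and the receptor genes move in the same cells was not tested.

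Markers of other marrow cells moved in different directions. Erythroid markers summed to at most 7.66 CPM and B lineage markers to at most 9.64 CPM in any library. T and NK cell markers summed to 1.65 to 4.96 CPM until day 4 and 7.81 to 58.8 CPM on day 6, the highest being replicate 2. Megakaryocyte and platelet markers summed to 3.04 to 15.5 CPM, dendritic cell markers to 188 to 445 CPM, and eosinophil, basophil and mast cell markers to 27.2 to 900.02 CPM with the highest sums on day 4. On day 6 against untreated, 4 of 6 tested dendritic cell markers were called higher and 1 lower (edgeR). Of 8 tested eosinophil, basophil and mast cell markers, 3 were called higher and 1 lower. The 1 tested T and NK cell marker was called higher, and the 1 tested erythroid and 1 tested B lineage marker lower. Of all tested genes, 35.0% were called higher and 32.9% lower. Endothelial and stromal markers summed to 176 to 285 CPM in untreated cells and 10.2 to 14.8 CPM on day 6, with Emcn and Col3a1 at 0 throughout. Ptprc, the pan-leukocyte marker CD45, was at 14.4 ± 9.52 CPM in untreated cells, 21.7 ± 2.69 on day 2, 277 ± 52.3 on day 4 and 609 ± 65.4 on day 6.

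Most other chemoattractant and lipid mediator receptors that were tested were also higher on day 6. Of 30 listed, 16 were tested, and 12 were called higher and 1 lower on day 6 against untreated, 7 higher and 1 lower on day 4, and 1 higher on day 2 (edgeR). Their median log2 fold change was 1.44 on day 6, 1.26 on day 4 and 0.33 on day 2. From day 4 to day 6, 4 of them were called higher and 4 lower, with a median of 0.026. Of all tested genes, 35.0% were called higher and 32.9% lower on day 6, and 22.1% and 20.2% on day 4. These shares were 1.05% and 0.406% on day 2, and 23.6% and 22.6% from day 4 to day 6. Gpr84, a receptor for medium-chain fatty acids, was at 33.8 ± 12.3 CPM on day 6 and 0.33 ± 0.22 CPM in untreated cells (SD, n = 3 each). C5ar2, a C5a receptor that does not couple to G proteins, was at 37.6 ± 12.1 CPM on day 6 and 0.80 ± 0.35 CPM in untreated cells. Cmklr1, the chemerin receptor, averaged 7.99 CPM on day 6 and 0.33 CPM in untreated cells, with 17.0 CPM in day 6 replicate 2 and 3.41 and 3.51 in the others. Gpr84 and Cmklr1 passed the filter on low counts only through later groups, where they are high. They are in the count called higher, and could hardly be called lower than untreated.

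The smaller changes of this list followed. Lpar6, a lysophosphatidic acid receptor, was at 26.6 ± 9.25 CPM on day 6 and 12.8 ± 1.63 CPM in untreated cells. Its day 4 level was higher, at 45.4 ± 1.40 CPM, and it was called lower on day 6 than on day 4 (log2 fold change -0.76, edgeR adjusted p = 0.00576). The prostacyclin receptor gene Ptgir was at 100.5 ± 26.6 CPM on day 6 and 58.9 ± 16.7 CPM in untreated cells. The libraries of Ptgir overlapped, and its call (log2 fold change 0.77, edgeR adjusted p = 0.0117) was lost with upper-quartile factors (0.51, 0.0572), library totals (0.24, 0.318) and without day 6 replicate 1 (0.60, 0.0534). P2ry2, a nucleotide receptor, was the 1 gene called lower on day 6 than in untreated cells, at 13.2 ± 0.92 against 34.5 ± 4.04 CPM (log2 fold change -1.38, edgeR adjusted p = 7.67e-05). The formyl peptide receptor relatives Fpr-rs3, Fpr-rs4, Fpr-rs6 and Fpr-rs7 had 0 counts in all 12 libraries, as did Gpr33 and Oxgr1. A count of 0 allows up to 0.393 to 0.640 CPM per library.

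Genes of the signalling machinery below these receptors were mostly higher by day 4. Of 38 listed, 36 were tested, and 31 were called higher and 1 lower on day 6, 25 and 1 on day 4, and 5 and 1 on day 2 (edgeR, against untreated). Their median log2 fold change was 1.24 on day 6, 0.55 on day 4 and 0.18 on day 2. Of all tested genes, 35.0% were called higher and 32.9% lower on day 6, and 22.1% and 20.2% on day 4. These shares were 1.05% and 0.406% on day 2. Pik3r5, the p101 regulatory subunit of the G protein-activated PI3 kinase gamma, was at 130.2 ± 1.69 CPM on day 6 and 1.69 ± 0.72 CPM in untreated cells (log2 fold change 6.25 ± 0.25, edgeR adjusted p = 2.79e-09). It had passed on day 4, at 44.8 ± 10.9 CPM. Pik3r6, the alternative p84 subunit, was at 40.6 ± 11.7 CPM on day 6 and 6.64 ± 1.27 CPM in untreated cells, below its day 4 level of 65.2 ± 2.43 CPM.

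Arrb2, which encodes beta-arrestin 2 and desensitises such receptors, was at 603 ± 107 CPM on day 6 and 68.6 ± 12.4 CPM in untreated cells (log2 fold change 3.13 ± 0.16, edgeR adjusted p = 1.50e-08). Gng11, a G protein gamma subunit, fell to 6.71 ± 1.12 CPM on day 6, against 17.4 ± 2.61 CPM in untreated cells. The smallest calls were Gnb1, a beta subunit (log2 fold change 0.24 on day 6), and Ric8a, a chaperone of G protein alpha subunits (0.36). Gnb1 was negative when scaled by library totals or upper quartiles, and Ric8a by library totals, so no direction is given for them.

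**Figure D4:**
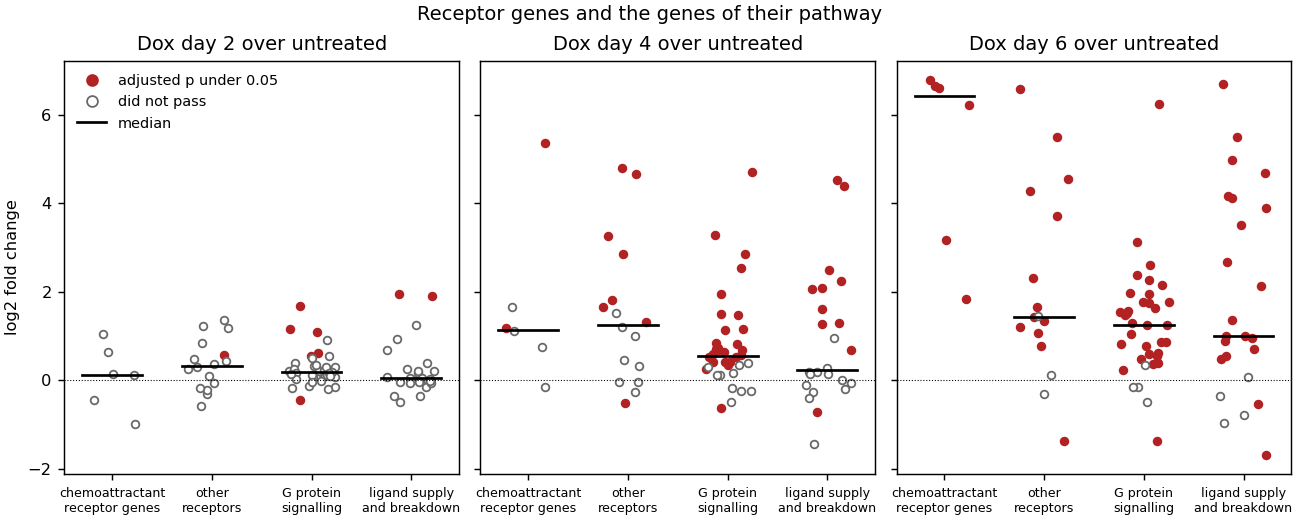
Log2 fold change over untreated at days 2, 4 and 6 for the 6 receptor genes and the tested genes of 3 lists (16 other receptors, 36 signalling genes, 24 genes of ligand supply and breakdown), filled where the edgeR adjusted p was under 0.05, with the median as a line. On day 6 the receptor genes have a median of 6.42, above the medians of 1.44, 1.24 and 1.01 of the lists.

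Genes that make or remove the ligands were called higher more often than lower on both day 4 and day 6. Of 27 listed, 24 were tested, and 18 were called higher and 2 lower on day 6, 10 and 1 on day 4, and 2 and 0 on day 2 (edgeR, against untreated). Their median log2 fold change was 1.01 on day 6, 0.23 on day 4 and 0.05 on day 2. Of all tested genes, 35.0% were called higher and 32.9% lower on day 6, and 22.1% and 20.2% on day 4. These shares were 1.05% and 0.406% on day 2. Lpcat2, which makes platelet-activating factor, was at 135 ± 35.1 CPM on day 6 and 1.27 ± 0.72 CPM in untreated cells (log2 fold change 6.71 ± 0.36, edgeR adjusted p = 3.33e-08). Cyp4f18, which inactivates leukotriene B4, was at 123 ± 49.8 CPM on day 6 and 2.68 ± 0.45 CPM in untreated cells. Camp, the precursor of the mouse cathelicidin peptide, an Fpr2 ligand and also a neutrophil marker, was at 6374 ± 2087 and 202 ± 109 CPM.

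Genes of the leukotriene B4 pathway are given because it feeds Ltb4r1, a choice made after the values were seen. Pla2g4a, also on the ligand list, was at 66.4 ± 2.73 CPM on day 6 and 45.4 ± 4.08 CPM in untreated cells. Alox5, the 5-lipoxygenase that starts leukotriene synthesis, was at 533 ± 115 CPM on day 6 and 20.5 ± 1.34 CPM in untreated cells (log2 fold change 4.70, edgeR adjusted p = 2.02e-07). Its partner Alox5ap was at 465 ± 30.5 and 107 ± 19.1 CPM (2.12, edgeR adjusted p = 2.86e-08). Lta4h, which makes leukotriene B4, was at 1701 ± 533 and 845 ± 37 CPM (1.01, edgeR adjusted p = 5.26e-04). Ptgr1, which also breaks leukotriene B4 down, fell to 106 ± 6.80 CPM on day 6, against 153 ± 19.2 CPM in untreated cells.

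Other ligand genes, also picked after their values were seen, were Anxa1 and C3. Anxa1, whose product annexin A1 acts on formyl peptide receptors, was at 2282 ± 299 CPM on day 6 and 198 ± 26.8 CPM in untreated cells (log2 fold change 3.52, edgeR adjusted p = 3.09e-09). C3, the source of C3a, was at 4123 ± 1268 and 2060.0 ± 366 CPM (1.00, edgeR adjusted p = 9.43e-04). Cd93, listed as a receptor tied to the complement component C1q, fell to 199.6 ± 38.5 CPM on day 6, against 647 ± 239 CPM in untreated cells. App, listed as a precursor of peptides that bind Fpr2, had a log2 fold change of 0.49 that turned negative with library totals.

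The genes most like each receptor across libraries were found by the Pearson correlation of log2 CPM over the 12 libraries among genes of at least 10 CPM on average. Since the libraries form 4 groups, whose differences all of these genes share, these values are a description. For Fpr1 the closest were Siglece (0.99), Mmp9 and Naa35, and for Fpr2 they were Mmp25 (0.99) and Plscr1. For C5ar1 they were Zfp281 (0.99), C5ar2 and Ngp, and for Ltb4r1 they were Jdp2 (0.99), Glrx and S100a8. For C3ar1 they were Pon2 (0.98), Ms4a6b and Slfn5, and for Ptafr they were Atp6v1g1 (0.98), Msrb1 and Klf6. Mmp9, Ngp and S100a8 are on the neutrophil marker list and Ms4a6b is on the monocyte list. Among the 6 receptor genes the correlation ran from 0.70 between Fpr2 and C3ar1 to 0.97 between C5ar1 and Ltb4r1.

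The genes most like C3ar1 had higher means on day 4 than on day 2. Ms4a6b, called higher on day 4 than in untreated cells (edgeR adjusted p = 0.00221), averaged 1.22 CPM in untreated cells, 1.02 on day 2, 20.6 on day 4 and 64.3 on day 6. Slfn5 averaged 34.1, 48.6, 349.8 and 794 CPM on the same days. Day 6 replicate 2 raised both day 6 means. Ms4a6b was at 129.7 CPM there and 29.2 and 34.0 in the others, and Slfn5 at 1459 and 460 and 462. The genes most like Fpr2 had means in every earlier group well below that of day 6. Mmp25 averaged 1.88 CPM in untreated cells, 0.979 on day 2, 1.77 on day 4 and 60.9 on day 6, and Plscr1 averaged 10.7, 10.7, 9.89 and 67.0 CPM.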

How the data were processed

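Bulk RNA-seq of 12 libraries in 4 groups of 3 (untreated, Dox day 2, day 4 and day 6) was used. The authors deposited raw counts per Entrez gene with a gene length, with no normalization seen in the values. Per the submitters' processing notes, the mm10 build, featureCounts, CASAVA 1.8.2, limma 3.22.0 and edgeR 3.8.2 were used, with no steps assigned to them. Not given in the sources used here are the aligner, the read length and the strand setting. Genes without a symbol held 0.487% to 1.06% of counts and were kept, as they have identifiers.

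The analysis here used edgeR 4.0.16 in R 4.3.3 (filterByExpr, 12057 genes kept, TMM factors, robust glmQLFit on all 12 libraries with group as the only term, 8 residual degrees of freedom, biological coefficient of variation 14.3%). The two-sided quasi-likelihood test was used, with calls made where the p adjusted by Benjamini-Hochberg was under 0.05. CPM and RPKM were computed here from TMM-scaled counts and the deposited lengths. The procedure was tested on simulated data.

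The receptor genes, marker lists and pathway lists were chosen with earlier results of these data known. Besides the receptors, the text names, per pathway list, the called genes with the 3 largest and 3 smallest log2 fold changes on day 6, the 3 genes most correlated with each receptor (log2 CPM, prior count 2; 1 of them is not reported here), Spi1, markers, and genes said to be picked later. Alternatives were DESeq2 1.42.0, limma voom (limma 3.58.1), 3 other scalings, no filter, a stricter filter (5 CPM in 3 libraries), only the groups compared, a replicate block, and omission of each library.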

Additional observations from a re-analysis of the deposited data

Results flagged for a closer look

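Results in this section differ between the step from day 4 to day 6 and the step from day 2 to day 4, as tested by the contrast of both steps within the edgeR fit. The log2 fold change after day 4 exceeded that before it by 6.45 for Fpr2, and all 3 day 6 libraries lay above all 3 day 4 libraries while day 4 and day 2 overlapped. It exceeded it by 3.46 for Fpr1 and by 3.54 for C5ar1, and each of these lost its call when some single libraries were left out. Groups of 3 libraries are too small for the test for an outlying sample, so no library was tested that way.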

How the results depend on the processing

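All 6 receptor genes were called higher on day 6 under every alternative and omission tried, with the member count at 6 throughout, and on day 2 the count was 0 throughout. With DESeq2, 4 were called on day 4 (Fpr1 and Ltb4r1 added) and 5 in the test of pace (Ltb4r1, and C3ar1 as negative, added). Over all genes, DESeq2 called 5063 on day 4 and 2016 in the test of pace, in either direction. Across omissions the member counts were 2 to 4 on day 4, 2 to 3 from day 2 to day 4, 5 to 6 from day 4 to day 6 and 1 to 5 for pace.

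Over all genes, 175 were called on day 2, against 424 with DESeq2 and 412 with only the groups compared. Across omissions the counts were 38 (without day 2 replicate 2) to 603 (without day 6 replicate 2) on day 2, 3878 to 6143 on day 4, 7626 to 8653 on day 6, 1876 to 4193 (lowest without day 4 replicate 2) from day 2 to day 4, 4296 to 6853 from day 4 to day 6 and 693 to 3823 for pace. The day 2 count was also lower without day 2 replicate 1 (48), untreated replicate 1 (52) and untreated replicate 3 (103), the count from day 2 to day 4 without day 2 replicate 1 (2015) and day 4 replicate 3 (1889), and the pace count without day 4 replicate 3 (693), 1 (929) and 2 (993). The pace count was highest without day 6 replicate 2 (3823). Among the calls, the share in the upward direction depends on the scaling. On day 6 it was 51.6%, against 37.3% (scaled by upper quartiles) and 25.2% (library totals), which shift the median of all genes by -0.25 and -0.52 (log2). On day 4 it was 52.2%, against 41.2% and 39.1%, with shifts of -0.11 and -0.13. From day 2 to day 4 it was 59.6%, against 43.8% and 35.1% (-0.10 and -0.15), and from day 4 to day 6 it was 51.1%, against 34.6% and 17.5% (-0.18 and -0.42). For pace it was 44.3%, against 23.2% with library totals (-0.28).

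Some directions turned. Gnb1 on day 6 was -0.0089 when scaled by upper quartiles and -0.27 by library totals, where Ric8a was -0.16 and App -0.032. Across omissions, the day 2 value ranged over -1.64 to 0.091 for Fpr1, -0.69 to 0.11 for Fpr2, -0.14 to 1.09 for C5ar1, -0.18 to 0.37 for Ltb4r1 and -0.022 to 0.22 for Ptafr. For Fpr2 it ranged over -0.60 to 0.43 on day 4 and -0.14 to 0.54 from day 2 to day 4. None of these receptor values passed the test. Gnb1 with library totals did pass (edgeR adjusted p = 0.0100), in the direction opposite to the main fit. C3ar1 from day 4 to day 6 did not pass with library totals (adjusted p = 0.0851), no filter (0.0618) or only the groups compared (0.0690). C5ar1 in the test of pace did not pass with limma voom (0.0562) or no filter (0.0916). With library totals the day 6 level was 73.6 RPKM for Fpr1, 145.7 for Fpr2 and 46.2 for Ptafr, and without day 6 replicate 2 it was 193.8 for Fpr2. Of the counts for the pathway lists, 312 stayed within 1.5 times and 66 did not, all of them counts of 5 genes or fewer. For the share of gain after day 4, library totals and omissions were chosen after seeing the data, and omissions gave 39.7% to 69.9% for C3ar1 and 45.8% to 61.4% for Ptafr. The causes were not tested.

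Over the tested genes as a whole, libraries with the same replicate number did not on average deviate together (mean residual correlation 0.006 over 18 pairs, -0.17 to 0.29). This average cannot settle the matter for a single gene. C3ar1 was highest in replicate 2 of every group (0.42, 0.92, 11.7 and 40.5 CPM in untreated cells and on days 2, 4 and 6). With the replicate block 141, 4931 and 8066 genes were called at days 2, 4 and 6, and 1571 for pace. The member counts there were 0, 2, 6 and 3, with Fpr1 lost (3.49, adjusted p = 0.0542) and C3ar1 gained (-3.00, 0.00872) for pace. Depth limits Fpr1, Fpr2 and C3ar1 before day 6, where libraries held 0 to 80 counts.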
